A study of Drosophila melanogaster with 24 samples.

Results

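Cap-G is a subunit of condensin I, the ring-shaped complex that compacts chromosomes at mitosis by extruding loops of DNA. Post-mitotic cells do not divide, so binding of condensin to their chromatin concerns interphase functions. Long stretches without genes are places where binding can be read away from gene bodies. In the fly genome such stretches are of broadly different kinds: deserts in the euchromatic arms that often flank developmental regulators and can hold their distant enhancers, and gene-poor, repeat-rich DNA near the centromeres. Targeted DamID reads binding as adenine methylation. A protein fused to the Dam methylase marks GATC sites near the places it occupies, Dam alone marks accessible chromatin, and the log2 ratio of the fusion to Dam alone is positive where the fusion marked a fragment more than Dam did. Negative values are common where chromatin is open to Dam.

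The gaps described here were stretches of the measured chromosome arms longer than 20 kb that overlapped no gene of any biotype in a Release 6 gene table. Of 12192 gene-free stretches on 6 arms, 395 were longer than 20 kb. They covered 18.7 Mb, 13.97% of the 133.9 Mb measured, and held 47288 of the GATC fragments into which the arms were divided. No measured Cap-G value entered their choice. The gene table may be incomplete, and a gene that it lacks would make a gap too long. Their median length was 29.7 kb, and the longest was 710.7 kb. Arm 3L held 108 gaps, 2L and 2R 74 each, 3R 71, X 66 and arm 4 held 2. No gap bordered dpn, E(spl)mgamma-HLH, CycE, stg, ase, nSyb or Obsc.

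The tracks came from Drosophila melanogaster larval brains of 3rd instar animals in which Cap-G-Dam, or Dam alone as the control, was driven from a UAS transgene by 1 of 3 GAL4 drivers. wor-GAL4 is active in neural stem cells (NSCs), elav-GAL4 in immature and mature neurons together, and nSyb-GAL4 in mature neurons, so the cells of the last driver are also among those of the elav driver. Every group also carried the temperature-sensitive repressor tub-GAL80ts. Animals were kept at 18 degrees Celsius and moved to 29 degrees for the final 24 h, which limits methylation to that period. Each of the 6 groups had 2 samples of 30 brains, and each cell type had its own Dam-only samples. The values used were 1 track per cell type, in which the authors had already averaged the replicates. No spread between replicates could therefore be computed, no difference between cell types was tested, and the read depth behind a value is unknown. Each track averages over all cells in which its driver was active. The tracks hold binding and not expression, so the labelled cell types could not be checked against markers.

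A gap's value was the mean log2 ratio over its length, each fragment weighted by its length. The background was the same mean over 6690 consecutive 20 kb tiles of the arms, with or without genes. Gaps were also split by position. Those within 5 Mb of the centromere-side end of an arm, and those on arm 4, are called proximal (129 gaps), and the others distal (266 gaps). This split was chosen after the values were seen.

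Gaps were poor in positive Cap-G signal. Their median values were -0.039 in the NSC track, -0.066 in the elav track and -0.012 in the nSyb track, against tile medians of -0.027, -0.022 and -0.021. The quartiles of the gaps ran from -0.084 to -0.011 in NSCs, from -0.178 to -0.004 in the elav track and from -0.121 to 0.026 in the nSyb track. A mean above 0 was found in 60 gaps in NSCs (15.2%, against 33.5% of tiles) and in 93 gaps in the elav track (23.5%, against 43.5%). In mature neurons 164 gaps were above 0 (41.5%), close to the 43.6% of tiles. Over all gaps the shortfall of positive values was largest in the NSC and elav tracks.

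Strong signal was scarcer still. Only 6 gaps exceeded the level passed by the highest 10% of tiles in NSCs (1.52% of gaps), 5 in the elav track (1.27%) and 18 in the nSyb track (4.56%). The range of the lowest 10% of tiles held 33 gaps in NSCs (8.35%), 52 in the elav track (13.2%) and 10 in the nSyb track (2.53%). Gaps are longer than tiles, and a mean over more sequence varies less, so these shares also reflect length. Among single fragments 1.11% of those in gaps lay above the 95th percentile of the NSC track, 0.90% above that of the elav track and 1.76% above that of the nSyb track. Runs of at least 2 such fragments occurred 7.06 times per Mb of gap in NSCs, 6.15 in the elav track and 10.8 in the nSyb track, against about 37 per Mb over the arms (37.0, 36.9 and 37.1). In distal gaps alone such runs occurred 13.4, 8.71 and 17.9 times per Mb (NSC, elav, nSyb), and in proximal gaps 1.76, 4.02 and 4.90 times. A rate per Mb also depends on how many fragments a Mb holds. Distal gaps held fewer, a median 1.75 per kb against 2.65 in distal tiles, so the rates per Mb overstate their shortfall.

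Distal and proximal gaps differed. Distal gaps had medians of -0.031 (NSC), -0.100 (elav) and -0.065 (nSyb), and the distal tiles -0.020, -0.011 and -0.043. Proximal gaps had medians of -0.045, -0.038 and 0.006, and the proximal tiles -0.045, -0.049 and 0.004. Proximal gaps were thus close to other proximal sequence in level. The nSyb track was the one in which proximal gaps lay mostly above 0, in 79 of 129 (61.2%), but the values were small and proximal tiles did the same (56.0%). Of the distal gaps 85 of 266 were above 0 in that track (32.0%), fewer than among distal tiles (40.6%). Fragments were also listed at exactly 0 in all 3 tracks, which pulls a mean towards 0. They covered a mean 20% of the length of proximal gaps (proximal tiles 16.3%) and 6.0% of distal gaps (distal tiles 2.56%). Within the distal gaps 2.59%, 1.58% and 3.65% of fragments passed the 95th percentile of the NSC, elav and nSyb tracks, so the scarcity of strong fragments was present away from the centromeres too.

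**Figure D1:**
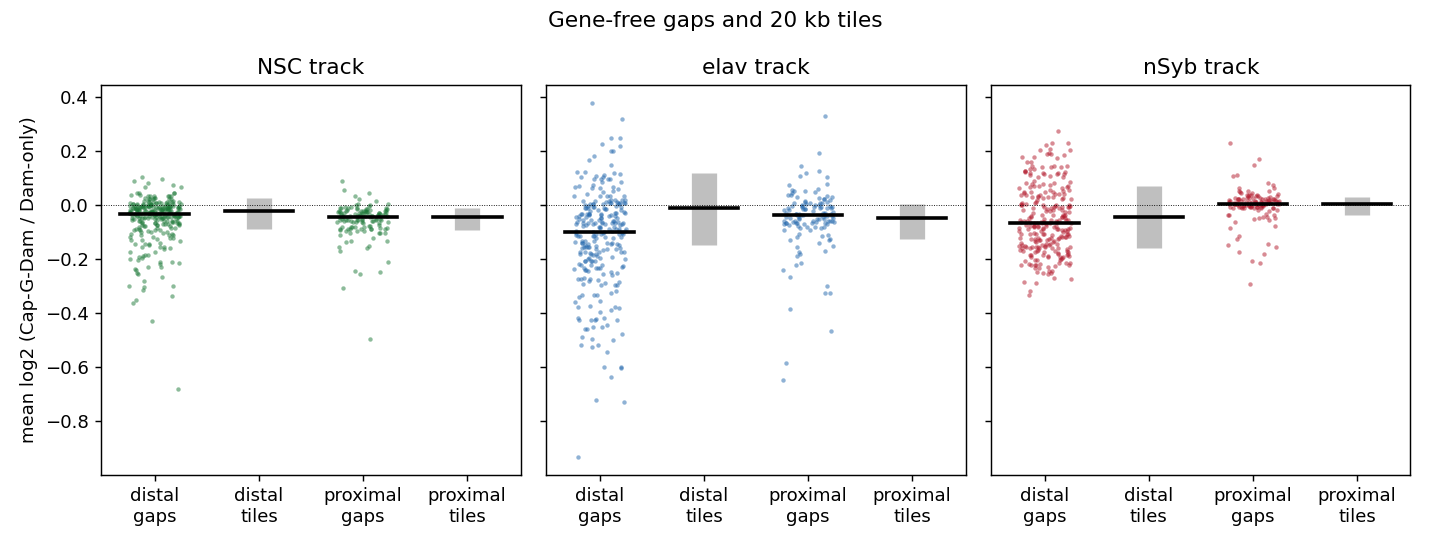
Mean log2 ratio (Cap-G-Dam over Dam-only) of each gene-free gap (points), by track and position on the arm, with the median (black line). Grey bars are the interquartile range of 20 kb tiles of the same position; distal gaps have a median of -0.100 in the elav track, against -0.011 for distal tiles, and proximal gaps cluster near 0.

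The arms differed in the level of their distal gaps but not in the sign of the median. Among distal gaps the median in NSCs lay between -0.043 (2L, n = 49) and -0.027 (X, n = 42). In the elav track it lay between -0.143 (X) and -0.064 (2R, n = 38). In the nSyb track it lay between -0.107 (3R, n = 59) and -0.024 (3L, n = 78), and 3L was the arm with most distal gaps above 0 in that track, 35 of 78 (44.9%). Of all tiles of 3L 48.6% were above 0 in that track. Every one of these arm medians was negative. Of the 2 gaps on arm 4, neither was above 0 in NSCs or the elav track, and the tiles of that arm were low as well, with medians of -0.208, -0.140 and -0.185.

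The 5 longest gaps were all proximal and close to 0. They were CG42598 to CG40228 (3L 26371357 to 27082090, 710.7 kb), the start of 3R to Myo81F, Dbp80 to lncRNA:CR46482 on 3L, lncRNA:flam to CG40813 on X and the start of 2R to DIP-lambda. Their values ran from -0.03 to -0.0022 in NSCs, from -0.07 to -0.02 in the elav track and from -0.01 to 0.01 in the nSyb track. lncRNA:flam is the flamenco locus, the source of piRNAs that silence transposons in the ovary. The 352.3 kb beside it had values of -0.02, -0.04 and -0.01. These values lie close to the medians of proximal gaps.

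The NSC and elav tracks ordered the gaps most alike, and the NSC and nSyb tracks least. In 179 gaps (45.3%) all 3 values were below 0, against 34.7% of tiles. All 3 were above 0 in 21 gaps (5.32%), against 18.7% of tiles. The nSyb value alone was above 0 in 99 gaps (25.1%), against 13.9% of tiles. That pattern made up 46 of 266 distal gaps (17.3%, distal tiles 8.97%) and 53 of 129 proximal gaps (41.1%). Its share among proximal tiles was not computed, so the proximal count has no background. Of the proximal tiles 12.1% were above 0 in NSCs, 27.3% in the elav track and 56.0% in the nSyb track. Gaps above 0 in elav alone numbered 20 (5.06%, tiles 9.4%), and in NSCs alone 17 (4.30%, tiles 5.29%). The neuronal tracks were both above 0, with NSCs not, in 37 gaps (9.37%, tiles 8.43%), NSCs and elav without nSyb in 15 (3.80%, tiles 7%) and NSCs and nSyb without elav in 7 (1.77%, tiles 2.54%). Across the 395 gaps Spearman's rho was 0.58 between the NSC and elav tracks, 0.37 between elav and nSyb and 0.10 between NSC and nSyb. Over tiles these were 0.66, 0.49 and 0.42. In the distal gaps rho was 0.76 between the NSC and elav tracks (distal tiles 0.68). It was 0.30 between elav and nSyb (distal tiles 0.53) and 0.17 between NSC and nSyb (distal tiles 0.46). These correlations are descriptions: the points share the same libraries and the same GATC spacing.

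To compare tracks of different width, each value was scaled: the tile median of the track was subtracted and the result divided by the tile spread (the median absolute deviation, scaled to match an SD, which was 0.078 for NSC, 0.180 for elav and 0.148 for nSyb). From NSCs to the elav track the median scaled difference of the gaps was -0.16 (tiles 0.01). It exceeded 1 in 36 gaps (9.11%), against 20% of tiles, and fell below -1 in 27 (6.84%), against 9.3%. From elav to nSyb the median was 0.16 (tiles -0.13). It exceeded 1 in 87 gaps (22.0%, tiles 14.1%) and fell below -1 in 15 (3.80%, tiles 20.2%). Rises were thus more common and falls less common among gaps than among tiles in the elav to nSyb comparison. In the distal gaps 77 of 266 rose by more than 1 (28.9%, distal tiles 14.1%) and 14 fell (5.26%, distal tiles 23.0%). From NSCs to nSyb 82 gaps rose by more than 1 (20.8%, tiles 19.2%) and 46 fell (11.6%, tiles 17.8%), with a median of 0.19. That median came from the proximal gaps (0.44). In the distal gaps it was -0.13, the same as in distal tiles (-0.13). Of the distal gaps 60 rose by more than 1 (22.6%, distal tiles 18.0%) and 40 fell (15.04%, distal tiles 20.99%).

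Among distal gaps the density of GATC fragments moved with the nSyb value only. Distal gaps held a median 1.75 GATC fragments per kb and distal tiles 2.65, so distal gaps were cut into fewer and longer fragments. Across distal gaps the nSyb value rose with fragments per kb (rho = 0.64, n = 266), while the elav (0.08) and NSC (-0.003) values did not. Distal tiles gave 0.48, 0.39 and 0.19. GATC density follows base composition and sets the length of the amplified fragments, and its part in the tracks was not tested.

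Distal gaps and distal tiles were then set side by side by class of density, without matching within a class. The distal gaps were divided by density into 3 equal classes. In the class of lowest density, up to 1.44 fragments per kb (89 gaps), the medians were -0.036, -0.100 and -0.128, and the 639 distal tiles in that range had -0.030, -0.101 and -0.156. In the middle class, up to 2.13 per kb (88 gaps), they were -0.026, -0.107 and -0.088, against -0.029, -0.073 and -0.123 in 1188 tiles. In the densest class (89 gaps) they were -0.029, -0.070 and 0.053, against -0.013, 0.041 and 0.016 in 3546 tiles. The low elav value of gaps relative to tiles therefore stood out in the densest class and not in the sparsest. In the same class the nSyb value of gaps was above that of tiles, and 66 of 89 gaps were above 0 (74.2%, tiles 54.3%).

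**Figure D2:**
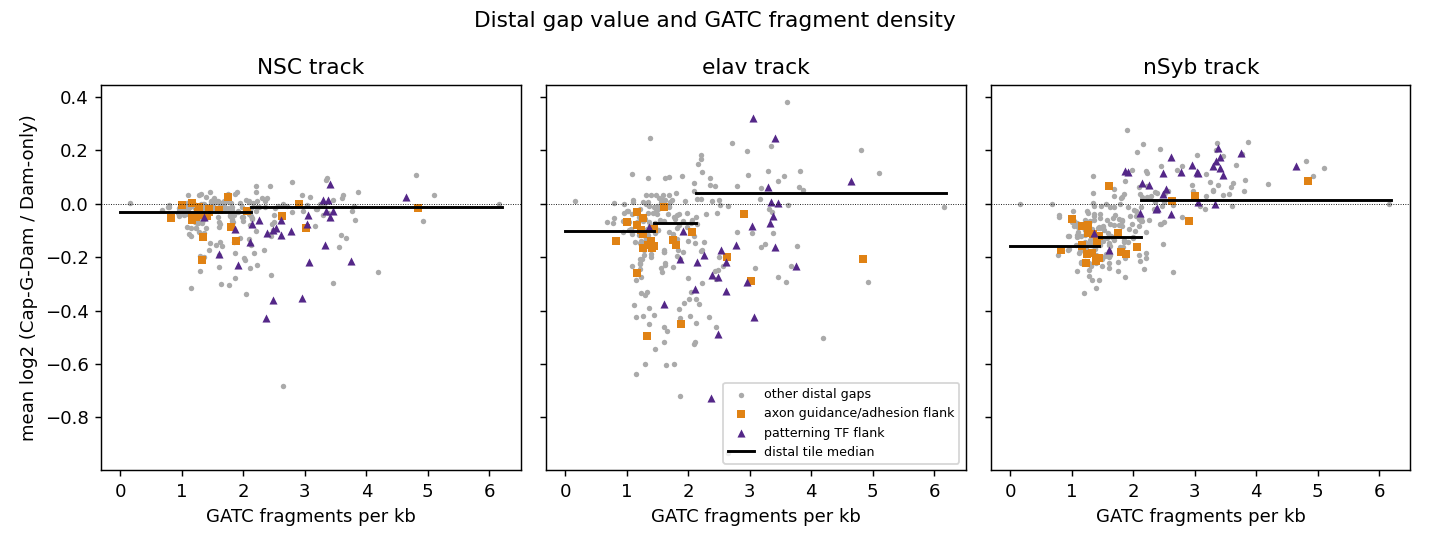
Mean log2 ratio of each distal gap against its number of GATC fragments per kb, by track, with gaps beside patterning transcription factor genes (triangles) and axon guidance or adhesion genes (squares) marked. Black lines are the medians of distal 20 kb tiles within each class of density; the nSyb value rises with density (rho = 0.64 across distal gaps) and the NSC value does not (-0.003).

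Among distal gene-free stretches up to 100 kb medians fell with length, with little change between the classes on either side of 20 kb. In the elav track the distal median fell from 0.010 in stretches of 1 to 5 kb (n = 2087) to -0.040 at 5 to 10 kb (n = 714), -0.092 at 10 to 20 kb (n = 533) and -0.096 at 20 to 40 kb (n = 228). At 40 to 100 kb (n = 36) it was -0.169. The NSC medians over the same classes were -0.010, -0.013, -0.024, -0.027 and -0.057. The nSyb medians were 0.025, -0.018, -0.060, -0.066 and -0.067. Stretches close to the limit were taken with distal and proximal ones together. Those just outside, at 19 to 20 kb (n = 35), had medians of -0.018, -0.167 and -0.117. Those just inside, at 20 to 21 kb (n = 27), had -0.036, -0.116 and -0.068. The elav and nSyb medians were thus higher just inside the limit, and the NSC median was lower. Protein-coding genes longer than 20 kb (n = 1012), a comparison added after the data were seen, had medians of -0.017, -0.003 and -0.073. Distal gaps were thus lower than long genes in the elav track and about level with them in the nSyb track.

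Next to the genes the signal dipped. In the first 1 kb of a gap, counted from the nearer flanking gene, the mean was -0.109 ± 0.182 (SD over 395 gaps) in NSCs, -0.160 ± 0.278 in the elav track and -0.086 ± 0.206 in the nSyb track. At 5 to 10 kb it was -0.053 ± 0.102, -0.091 ± 0.202 and -0.028 ± 0.132. The dip reached into the genes, whose outermost 1 kb had means of -0.114, -0.166 and -0.071. The spread over gaps was larger than the change in each track. For single gaps, the interior (10 kb or more from a gene) minus the edge (the first 2 kb) had a median of 0.028 in NSCs, 0.027 in the elav track and 0.030 in the nSyb track, and was above 0 in 243, 220 and 238 of 395 gaps.

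This difference was mostly that of proximal gaps. There the interior was higher than the edge by a median of 0.056, 0.060 and 0.040, in 99, 85 and 93 of 129 gaps. In distal gaps the medians were 0.010, 0.010 and 0.016, in 144, 135 and 145 of 266. Farthest from genes the classes parted: beyond 20 kb the mean was -0.120 ± 0.160, -0.258 ± 0.309 and -0.084 ± 0.157 in the 40 distal gaps that reach so far, and -0.038 ± 0.045, -0.036 ± 0.080 and 0.012 ± 0.024 in 70 proximal gaps. Those 40 are the distal gaps longer than 40 kb and those at an arm end, so distance and length cannot be told apart there.

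**Figure D3:**
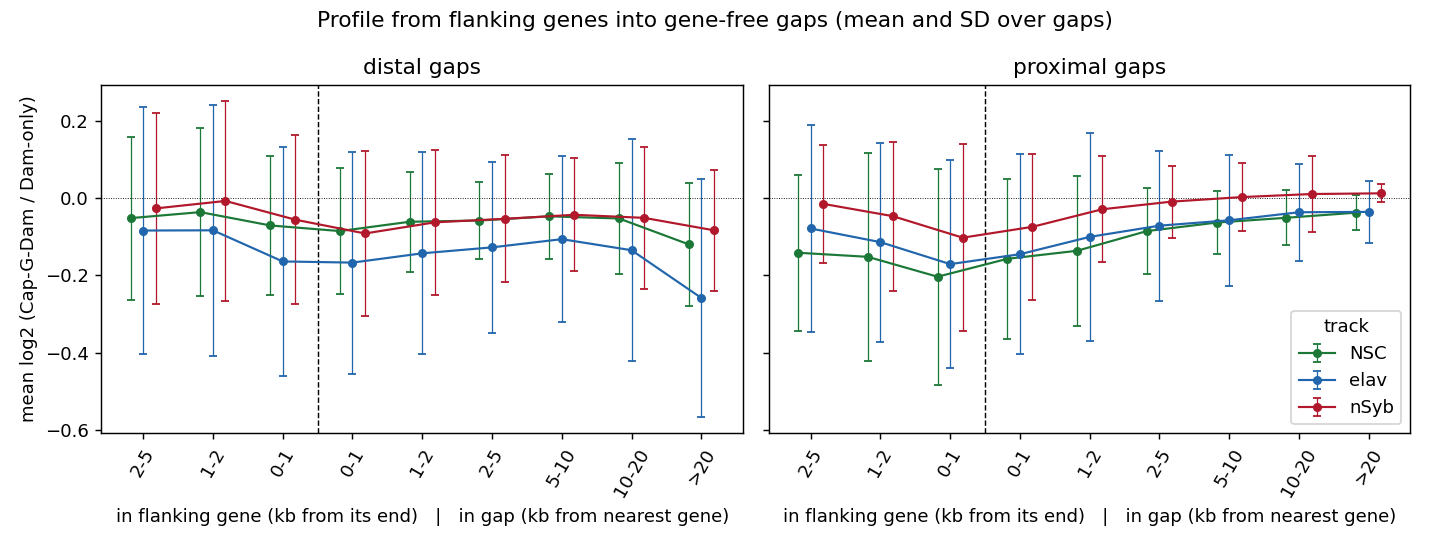
Mean log2 ratio (points) and SD over gaps (bars) from 5 kb inside the flanking genes to more than 20 kb into the gap, for distal and proximal gaps and each track. The dashed line is the gene boundary. The profile is low on both sides of it, and proximal gaps rise towards 0 with distance. Beyond 20 kb the distal means are lower again, over only the 40 distal gaps that reach so far. The distal nSyb median is not lower there (-0.024, against -0.045 at 10 to 20 kb in 266 gaps).

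Gaps shared the level of their surroundings only in part. The gap minus the mean of its flanking genes had a median of 0.004, 0.002 and -0.002 over all gaps. In distal gaps it was -0.018, -0.022 and -0.046, and the gap was lower than its flanking genes in 157, 139 and 163 of 266. In proximal gaps it was 0.056, 0.041 and 0.019. Across distal gaps the value rose with that of the flanking genes (rho = 0.34 in NSCs, 0.45 in the elav track, 0.35 in the nSyb track), and a fragment that spans the boundary counts in both. Gaps on either side of the same gene were also compared. In 27 distal cases 1 gene had a gap on each side, and rho between the sides was 0.54, 0.65 and 0.72, with a median absolute difference of 0.051, 0.084 and 0.067.

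The flanking genes themselves were of unlike kinds. Of 790 gap ends 67.2% bordered a protein-coding gene and 24.8% a long non-coding RNA (lncRNA) gene, whose shares of the gene table were 78.7% and 11.1%. At distal gaps lncRNA genes made up 29.3% of ends, and at proximal gaps pseudogenes made up 12.0%. Distal gaps with at least 1 lncRNA neighbour (n = 136) had medians of -0.038, -0.112 and -0.074, and those with none (n = 130) had -0.028, -0.079 and -0.059. The difference was small in each track beside the spread among gaps.

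Gaps beside genes for patterning transcription factors, the proteins that set positional and neuronal identity, had low medians in NSCs and the elav track and were mostly positive in mature neurons. In all, 33 gaps bordered 27 of the 133 listed genes that were in the gene table. Their medians were -0.096 in NSCs, -0.180 in the elav track and 0.114 in the nSyb track, against -0.039, -0.066 and -0.012 over all gaps. The value was above 0 in 5 of 33 in NSCs (15.2%, and 15.2% of all gaps) and in 7 of 33 in the elav track (21.2%, all gaps 23.5%). These 2 counts were near the background. In the nSyb track it was above 0 in 25 of 33 (all gaps 41.5%). From NSCs to nSyb 26 of 33 rose by more than 1 scaled unit (all gaps 20.8%) and 0 fell (all gaps 11.6%). From elav to nSyb 22 of 33 rose (all gaps 22.0%) and 0 fell (all gaps 3.80%). The 204 distal gaps with no listed neighbour had medians of -0.025, -0.076 and -0.076. From NSCs to nSyb 33 of these 204 rose by more than 1 scaled unit (16.2%) and 33 fell. From elav to nSyb 49 of them rose (24.0%) and 13 fell, so there too rises outnumbered falls in that comparison.

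These gaps were also dense in GATC sites, with a median 2.77 fragments per kb and a range of 1.36 to 4.65. Of the 28 that were distal, 23 lay in the densest class. There their medians were -0.075, -0.173 and 0.117, and those of the 66 other distal gaps of that class were -0.016, -0.032 and 0.043. From NSCs to nSyb 19 of the 23 rose by more than 1 scaled unit and 0 fell, and 15 of the 66 rose and 2 fell. From elav to nSyb 17 of the 23 rose and 0 fell, and 25 of the 66 (37.9%) rose and 3 fell. Within this class the gaps beside patterning factors had lower medians than the others in NSCs and the elav track. Their median was higher in mature neurons. Density was not matched within the class. The median density was 3.03 fragments per kb in the 23 gaps and 2.79 in the 66 others. The 33 gaps are not independent, since several lie on both sides of 1 gene. No test was made of the list.

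**Figure D4:**
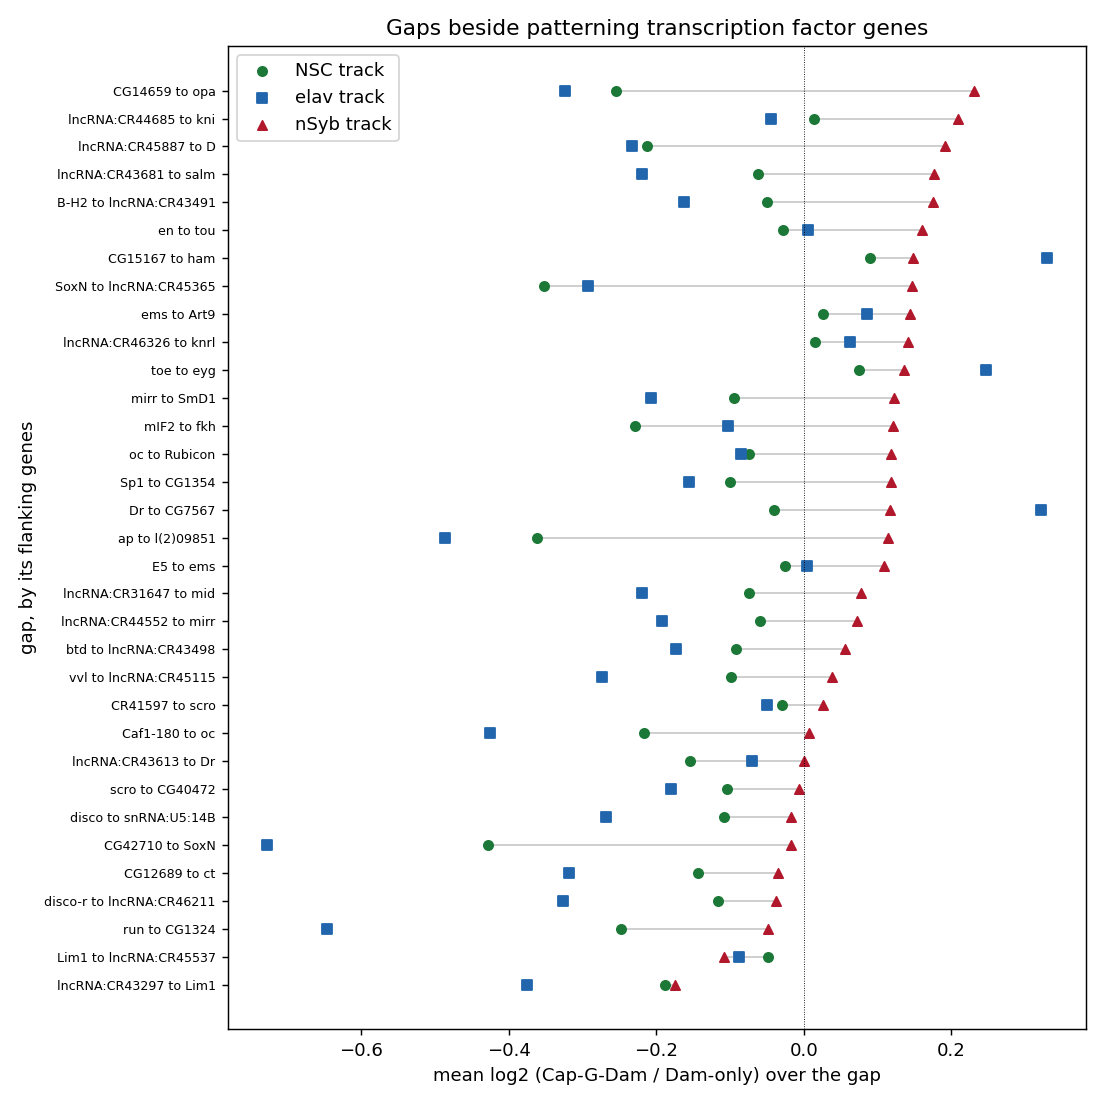
Mean log2 ratio over each of the 33 gaps beside a patterning transcription factor gene, in the NSC (circles), elav (squares) and nSyb (triangles) tracks. Rows are ordered by the nSyb value, and a grey line joins the NSC and nSyb values; 25 of 33 nSyb values lie above 0 (41.5% of all gaps do) and 5 of 33 NSC values (15.2% of all gaps do).

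Both gaps around SoxN, which encodes a SoxB factor of the early neuroectoderm and neural stem cells, were among the lowest in NSCs. The gap CG42710 to SoxN (2L 8782501 to 8825644, 43.1 kb) had values of -0.43, -0.73 and -0.02 (NSC, elav, nSyb). Of its 102 fragments 11 were above 0 in NSCs, 6 in the elav track and 70 in the nSyb track. The gap was thus low along its length in NSCs and the elav track and mixed in mature neurons. Here and below, counts of fragments or windows above 0 are given without the share over all fragments or windows. They describe gaps picked mostly for their extreme mean values and are not a separate result. The 2 kb window that starts 16 kb from CG42710 was the lowest in each track, at -1.49, -2.19 and -1.02. On the other side, SoxN to lncRNA:CR45365 (2L 8829671 to 8852008) had values of -0.35, -0.29 and 0.15. In scaled values these gaps rose by 5.16 and 5.30 from NSCs to nSyb.

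The lowest gap of all in NSCs and the elav track was corto to CG43131 (3R 5087073 to 5108677, 21.6 kb), at -0.68, -0.93 and -0.26. Corto is a chromatin protein that interacts with Polycomb and trithorax group proteins. Only 2 of its 57 fragments were above 0 in NSCs and 2 in the elav track, with 21 in the nSyb track. It was low in all 3 tracks, and its scaled rise from NSCs to nSyb, 6.78, was the largest of any gap although the nSyb value stayed below the tile median. On the other side of corto, the gap from lncRNA:CR45588 had -0.03, -0.06 and -0.14, so the 2 sides of this gene were unlike.

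Several other gaps beside patterning genes were low in NSCs and the elav track and positive in mature neurons. The gap beside ap (2R 5727526 to 5754516) had -0.36, -0.49 and 0.11, and apterous is a LIM-homeodomain factor of the dorsal wing and of neuronal identity. The gap CG14659 to opa (3R 4831298 to 4852812) had -0.26, -0.32 and 0.23, and odd-paired is a Zic-family zinc-finger factor. All 10 of its 2 kb windows were above 0 in the nSyb track, and none was in NSCs. The gap lncRNA:CR45887 to D, beside the SoxB gene Dichaete, had -0.21, -0.23 and 0.19. A like pattern was seen in mir-9385 to lncRNA:CR43437 on arm 4 (400766 to 426066), with -0.50, -0.59 and 0.04, where 2 of 63 fragments were above 0 in NSCs and 49 in the nSyb track.

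**Figure D5:**
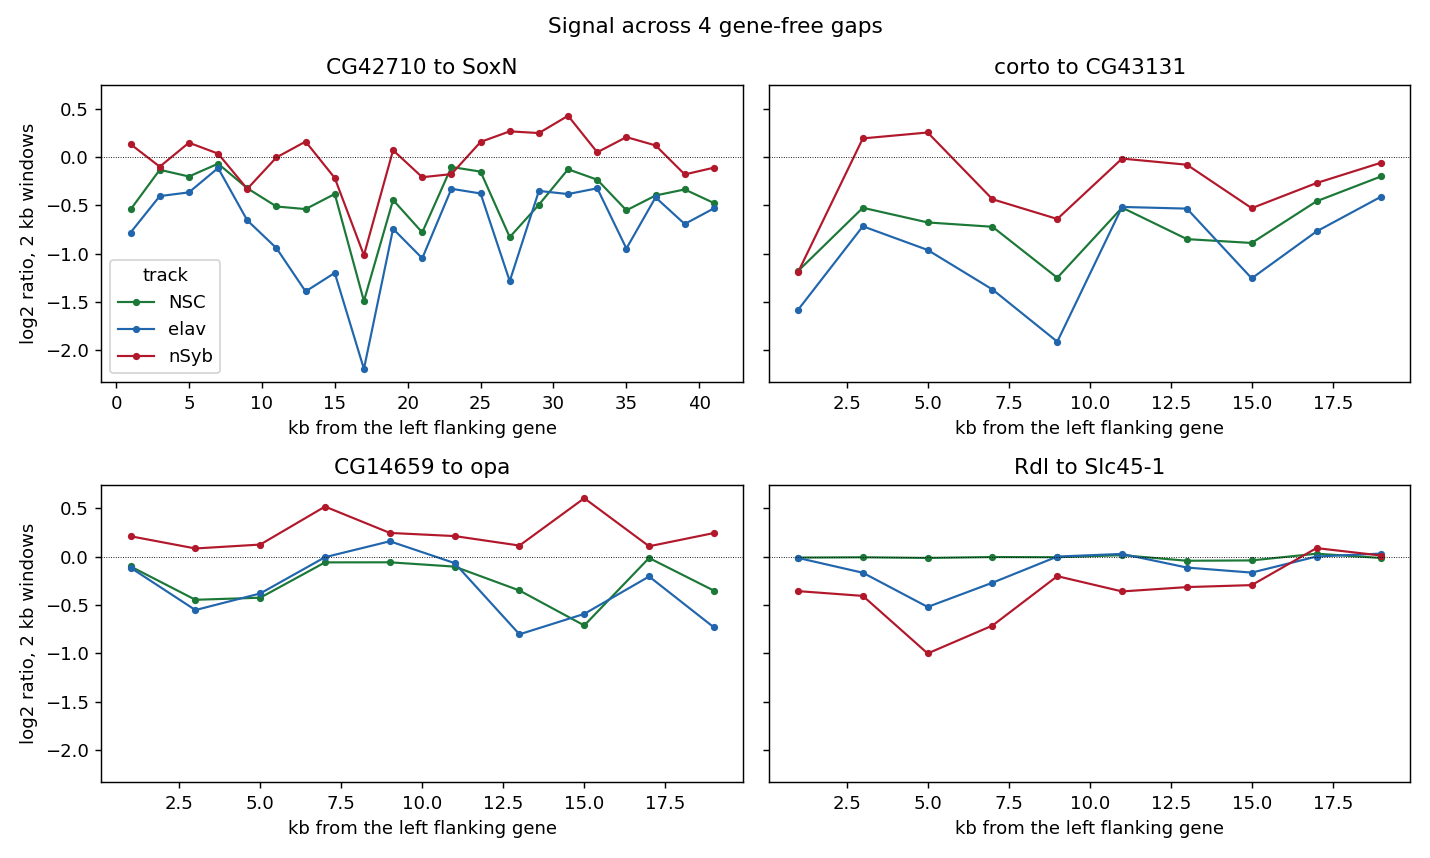
Mean log2 ratio in 2 kb windows across 4 gaps, against the distance in kb from the left flanking gene, for each track. The windows of CG14659 to opa are all above 0 in the nSyb track, while those of Rdl to Slc45-1 stay near 0 in NSCs and fall lowest in the nSyb track, where the mean over the gap is -0.33.

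Other patterning genes with a gap on each side showed how far the sides agreed. Beside oc, the head gap gene orthodenticle, the gap from Caf1-180 had -0.22, -0.43 and 0.01 and the gap to Rubicon -0.08, -0.08 and 0.12. Beside mirr, an Iroquois homeobox gene, the values were -0.06, -0.19 and 0.07 on one side and -0.10, -0.21 and 0.12 on the other. The gaps beside ems, the homeobox gene empty spiracles, had -0.03, 0.00 and 0.11 towards E5 and 0.03, 0.09 and 0.14 towards Art9. For these genes, which were added after their values were seen, the nSyb value was the highest of the 3 on both sides. Their NSC and elav values ranged from -0.43 to 0.09. Dr and Lim1, also of the list, differed. The gap lncRNA:CR43613 to Dr had -0.15, -0.07 and 0.0006, but Dr to CG7567 was higher in the elav track (0.32) than in the nSyb track (0.12). The gap Lim1 to lncRNA:CR45537 was lowest in the nSyb track, at -0.05, -0.09 and -0.11.

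In other gaps beside patterning genes the nSyb value was below 0. The gap run to CG1324 (X 20697322 to 20734454), beside the pair-rule gene runt, had -0.25, -0.65 and -0.05, a scaled rise of 2.64 from NSCs to nSyb. Both gaps around Lim1, a LIM-homeodomain gene, were below 0 in all tracks, with nSyb values of -0.18 and -0.11. In contrast CG15167 to ham (2L 18740808 to 18762873) was positive throughout, at 0.09, 0.33 and 0.15, and so was toe to eyg (3L 12432669 to 12462536), at 0.08, 0.25 and 0.14. Hamlet is a PR-domain factor, and toe and eyg encode Pax factors of eye development. The gap Dr to CG7567 (3R 29565245 to 29587236), beside the homeobox gene Drop, was highest in the elav track, at 0.32, with -0.04 in NSCs and 0.12 in mature neurons. The gap lncRNA:CR44685 to kni, beside the gap gene knirps, was near 0 in NSCs (0.01) and the elav track (-0.04) and at 0.21 in mature neurons.

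The highest gaps of the nSyb track were Eaf6 to Blimp-1 (3L 5608301 to 5630982, 0.28), CG14659 to opa and lncRNA:CR45958 to eg (3L 21777161 to 21808702, 0.23). Blimp-1 is a zinc-finger repressor of the ecdysone response, and eagle is a zinc-finger factor of serotonergic neurons. All 11 windows of 2 kb in the first were above 0 in the nSyb track, up to 0.57, and 40 of its 43 fragments were above 0 in the nSyb track, although its density was only 1.90 fragments per kb. In NSCs the highest gaps were Pex7 to hry (3L 8651012 to 8675758, 0.11), vn to CG5568 (0.10) and CG43098 to lncRNA:CR43484 (0.09). The gene hry is hairy, a bHLH repressor of segmentation and neurogenesis. In the elav track lncRNA:CR44526 to SrpRbeta (3L 8693192 to 8718948) was highest, at 0.38, with 83 of 93 fragments above 0, while its other values were 0.02 and -0.01.

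The 28 gaps beside genes of axon guidance and adhesion had low medians in the elav and nSyb tracks, at -0.037 (NSC), -0.124 (elav) and -0.111 (nSyb). Of the 28, 2, 0 and 7 were above 0, against 15.2%, 23.5% and 41.5% of all gaps. From NSCs to nSyb 2 rose by more than 1 scaled unit (all gaps 20.8%) and 6 fell (all gaps 11.6%). Their median density was 1.44 fragments per kb, and 20 of the 24 distal ones lay in the less dense classes, where the nSyb median was -0.157. The 152 distal gaps of those classes beside neither a patterning gene nor a gene of this list had -0.111. Gaps of those classes without such neighbours were thus low in the nSyb track too.

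Within this list lncRNA:CR43846 to klg (3R 22851805 to 22899283) was lowest in NSCs and the elav track, at -0.21 and -0.50, with -0.19 in the nSyb track. Klingon is an immunoglobulin-family adhesion molecule. Ten-a to CG2577 on X, beside the synaptic teneurin Ten-a, had -0.14, -0.45 and -0.19. Ir64a to DIP-delta and beat-Vc to CG31345, each beside an immunoglobulin-domain gene of neuronal wiring, both had -0.22 in the nSyb track. The highest NSC values of the list were those of side-VI to lncRNA:CR44940 (0.03, with -0.13 and -0.11 in the other tracks) and Dscam2 to lncRNA:CR45410 (0.00, with -0.03 and -0.16). Among the distal gaps of the list 4 were above 0 in the nSyb track, all beside the Toll-family genes 18w (0.01 and 0.07) and Tollo (0.08 and 0.03). The other 3 above 0 were proximal, at 0.00 to 0.04.

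Only 8 gaps bordered a gene for an ion channel, receptor or synaptic protein. Their medians were -0.042, -0.135 and -0.059. Rdl to Slc45-1 (3L 9182150 to 9203064), beside the gene of a GABA-gated chloride channel, had the lowest nSyb value of any ranked gap, -0.33, with -0.01 in NSCs and -0.12 in the elav track. Dop2R to lncRNA:CR45628, beside a D2-like dopamine receptor gene, had -0.04, -0.22 and -0.29, and GluRIB to PGRP-LA, beside an AMPA-type glutamate receptor gene, had -0.09, -0.19 and -0.22. These are gaps beside neuronal genes in which the nSyb value was the lowest of the 3. Their densities were at most 1.87 fragments per kb. The gaps nAChRalpha4 to alpha-Cat and CG40045 to Snap25, both proximal, had nSyb values of 0.04 each.

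Similar falls were seen beside genes of other roles. The gap inaC to Pkc53E (2R 16901576 to 16924654), between 2 protein kinase C genes, had 0.02, 0.03 and -0.32, and 3 of its 32 fragments were above 0 in the nSyb track. CG3795 to Scgdelta (X 1710183 to 1735944), beside the gene of a muscle sarcoglycan, had 0.04, -0.21 and -0.27. Both fell by more than 2 scaled units from NSCs to nSyb (fell by 2.66 and 2.51). Low values in NSCs and the elav track without a rise above 0 were seen beside snky, a gene needed for sperm function, where the gap to lncRNA:CR45096 (3L 13176782 to 13208542) had -0.28, -0.72 and -0.20 and the gap from CG33262 had -0.19, -0.52 and -0.22. Other large differences lay between genes of no list. lncRNA:CR44955 to lncRNA:CR45576 had 0.02, -0.24 and -0.01, and lncRNA:CR45191 to Spn100A had -0.04, -0.36 and -0.05, so both were lowest in the elav track. lncRNA:CR45379 to lncRNA:CR43917 had -0.27, -0.46 and 0.14. CG6836 to lncRNA:CR45689 had -0.01, 0.11 and -0.25. CG9932 to lncRNA:CR44197 (2L 13060141 to 13089802) was high in the elav track alone, at 0.25, with -0.04 and -0.17 in the others.

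The 4 gaps beside signalling ligand genes had nSyb values of -0.05 to 0.23. Vn to CG5568 (3L 5845665 to 5871500), beside the gene of the EGF receptor ligand Vein, had 0.10, -0.03 and 0.23. Ser to lncRNA:CR34006, beside the Notch ligand gene Serrate, had -0.0041, -0.11 and 0.18. Wnt4 to wg, between 2 Wnt genes, had -0.01, 0.06 and 0.05, and pyr to ths, between 2 genes of FGF8-like ligands, had -0.03, -0.10 and -0.05. All 4 were dense in GATC sites, at 2.79 to 3.80 fragments per kb.

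Only 2 gaps bordered a listed gene of neural stem cells, progenitors or the cell cycle, and they differed. The gap esg to CG15258 (2L 15336139 to 15360920), beside the Snail-family gene escargot, had -0.13, -0.23 and 0.14. The gap CG15225 to insc (2R 20793796 to 20821261), beside inscuteable, which orients the asymmetric division of neural stem cells, had -0.07, -0.12 and -0.22. The first was positive in mature neurons in 11 of 12 windows of 2 kb, and the second in 0 of 13. Both gaps around rpr, the cell death gene reaper, chosen after its values were seen, were low in the elav track, at -0.48 and -0.60, with -0.16 and -0.30 in NSCs and -0.12 and -0.06 in the nSyb track.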

How the data were processed

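Targeted DamID had been done on 12 samples and RNA-seq on 12 further ones, which were not analysed here. The submitters' processing notes name Bowtie2 and the build BDGP6. The authors normalised each Cap-G-Dam library to Dam-only and deposited 1 averaged log2 ratio per GATC fragment and cell type, over the same fragments in each track. The aligner's version was not given in the sources used here, nor was the averaging method.

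Gaps were computed from 17684 gene spans of the NCBI RefSeq table of assembly Release 6 plus ISO1 MT. Means were length-weighted. Percentiles of fragments were taken per track. The scripts used scipy 1.17.1, pandas 2.3.3 and numpy 2.4.6 under Python 3.11.15, and were tested on simulated tracks. Depth could not be read from the ratios, and no p-value was computed.

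The members and the gene lists were chosen with earlier results of these data known. The rule for gaps named in the text took the 5 longest, the 3 highest and lowest of each track, the 3 largest scaled rises and falls, the 2 highest and lowest of each list, and those around genes the study shows. Ranking needed 20 fragments other than 0 in all tracks (378 of 395 gaps). The gap beside D and the other sides of corto, Dr, 18w, Tollo and snky were added after their values were seen. So were the gaps around oc, mirr and ems. Alternatives were the fragment median, fragments at 0 left out, fragments of 200 to 2000 bp, limits of 15 and 30 kb, protein-coding spans only, 5 kb trimmed from each end, arm ends or each arm left out, other scalings and percentiles, and, added later, distal gaps only.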

Additional observations from a re-analysis of the deposited data

How the results depend on the processing

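No paired analysis was possible because each deposited track is an average over replicates, and for the same reason no replicate could be left out. Of 321 values (21 results, 20 alternatives), 278 kept within 0.05 (log2, scaled unit or rank correlation) of the reported value, or, for shares of fragments, within 1.5 times (of the doubled share for the 90th and 10th percentiles). The limit of 0.05 is wider than several reported values, so for these even a change of sign could count as kept. They include the medians of interior minus edge (0.028, 0.027 and 0.030) and of gap minus flanking genes (0.004, 0.002 and -0.002). With distal gaps only the medians of gap minus flanking genes were -0.018, -0.022 and -0.046. Differences of tile percentiles, in another unit, kept the direction in all 3 comparisons. The nSyb median, near 0 (-0.012), was -0.045 without arm ends. The cause of the other changes was not tested. With distal gaps only (added after seeing the data), the median scaled difference from NSC to nSyb reversed to -0.125 (from 0.190), NSC to elav was -0.266, elav to nSyb 0.109, the nSyb median -0.065, and the rank correlation 0.755 (NSC and elav), 0.303 (elav and nSyb) and 0.171 (NSC and nSyb). In distal gaps 2.590%, 1.575% and 3.652% of fragments were above the 95th percentile (NSC, elav, nSyb), against 1.11%, 0.90% and 1.76% over all gaps, and 4.924%, 7.281% and 4.632% below the 5th, against 3.17%, 3.68% and 2.09%. With a 30 kb limit 0.668% (NSC) and 0.553% (elav) were above the 95th.

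The median difference from NSC to elav (-0.163) was -0.086 with the fragment median, -0.216 and -0.102 with limits of 15 and 30 kb, -0.228 scaled by protein-coding genes and -0.102 scaled by 10 kb tiles. From NSC to nSyb it was 0.000 with the fragment median, 0.299 without fragments at 0, 0.120 with fragments of 200 to 2000 bp, 0.121 and 0.323 with limits of 15 and 30 kb, 0.088 with trimmed ends and 0.105 without arm ends. From elav to nSyb (0.160) it was 0.086 with the fragment median, 0.253 with a 30 kb limit, 0.104 with trimmed ends and 0.287 scaled by protein-coding genes. The elav level was -0.001 as a fragment median.

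The rank correlation of NSC and elav (0.582) was 0.653 with protein-coding spans only, 0.634 without arm ends and 0.636 without arm 2R. The rank correlation of NSC and nSyb (0.100) was 0.271 with the fragment median, 0.187 with protein-coding spans, 0.044 without arm 3L and 0.154 without arm X. The rank correlation of elav and nSyb was 0.445 with a 30 kb limit. Averages over replicates, with unknown depth, limit every comparison between tracks.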
